A study of Homo sapiens with 6 samples.

Results

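The adhesion and extracellular matrix genes described here were the 41 genes, of 1099 genes in the deposited table, that carried a KEGG term for focal adhesion, ECM-receptor interaction or cell adhesion molecules, or the Gene Ontology term for cell adhesion. Genes of the serpin, plasminogen activator and keratin families, MAP kinases and genes of the lysosome and endocytosis pathways were kept out, which removed 1 of 42 matching genes, PIP5K1A. The 3 KEGG terms held 13, 3 and 5 of the 41 genes, with some genes under more than 1 term, and the Gene Ontology term held 23, none of which carried a KEGG term of the 3. No integrin subunit was among them.

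The cells were AGS, a human gastric adenocarcinoma line labelled wild type, in 2 groups of 3 libraries that differed only in the agent, vehicle or SSD (saikosaponin-D, a triterpenoid saponin of Radix Bupleuri), for 24 h. The labels give the SSD dose as 10 μM and the methods of the study as 5 μM, so the dose is uncertain, and the culture text of the labels names another line (C4-2B) and a compound code (L14-8) that was not matched to SSD in the sources used here. Replicates were not stated to be separate cultures, so p-values measure the spread between these libraries, which may be technical. The comparison addressed which transcripts differed in AGS cells after SSD treatment.

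Cells hold on to the matrix and to one another through different sets of proteins. At focal adhesions, receptors bound to laminin or collagen are linked to actin filaments by proteins such as filamin and alpha-actinin, and myosin pulls on these filaments. Cadherins, nectin-like proteins, ephrins and receptor-type phosphatases act at contacts between cells, and SRF with its cofactor MRTF, which senses free actin, drives transcription of many actin and myosin genes.

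The libraries held 3084338 to 4640117 estimated counts in the table, of which 261252 to 433240 fell on the 41 genes. The table held 30.1% to 33.1% of the TPM (transcript abundance per length, scaled to a fixed sum) of each library. The authors listed genes with a small p in their own test, so a gene that is not in the table may still have been expressed, and adhesion genes with small changes were not analysed here. Of 10 gastric epithelial markers, TFF1 alone was in the table, none of 7 prostate, 4 endothelial and 5 leukocyte markers was, and of 6 fibroblast markers COL1A1 was, at 12.8 to 15.8 TPM in vehicle and 10.0 to 14.8 TPM in SSD. Such absence from a selected table could not check the cell type on the labels.

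Of the 41 genes, 18 rose and 9 fell after SSD, and 14 did not pass (edgeR quasi-likelihood test, adjusted p under 0.05, n = 3 libraries a group). Among all 1099 genes 33.8% rose and 19.5% fell, beside 43.9% and 22.0% of the adhesion and matrix genes. These table shares are the background of each count by role, term or list below, and no such group was tested as a set. The fold changes were small. The 18 rises lay between 0.21 and 0.64 and the 9 falls between -0.67 and -0.18 on the log2 scale, and only PCDHB13 and CD274 passed with a change of at least 1.5-fold, 4.88% of the members beside 7.19% of the table. The groups did not overlap in scaled counts for 37 genes, 90.2% of the members beside 87.4% of the table. An unadjusted p under 0.05 was found for 37 of the 41 members and for 983 of the 1099 table genes. The authors had selected the table by p in these same libraries, so such high counts were set in advance. The median log2 fold change was -0.12 over the members and -0.14 over the table. No member lay between -0.09 and 0.21, in a table that lists genes by their p. In bulk RNA, fewer cells of a type and less RNA per cell cannot be told apart.

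The counts were set on a scale that covers the whole library, read from the ratio of count to TPM in each library, because the table holds selected genes only. On the TMM scale, which uses the table alone, the median of all table genes moved by 0.07, the number of rises among the members remained 18 and the falls dropped to 5, since MYL12A, PVR, EFNB2 and ACTB no longer passed. Rises were then 78.3% of the called members in place of 66.7%, and 81.6% in place of 63.4% of the called table genes. Single libraries also carried weight. Without SSD 2 the counts were 8 rises and 4 falls, without vehicle 2 they were 10 and 4, and without vehicle 3 they were 10 and 5. All 27 called genes kept their direction when any library was left out. None of the 27 overlapped between the groups in scaled counts, so the direction could not turn. Of the 27, 12 kept the call each time.

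**Figure D1:**
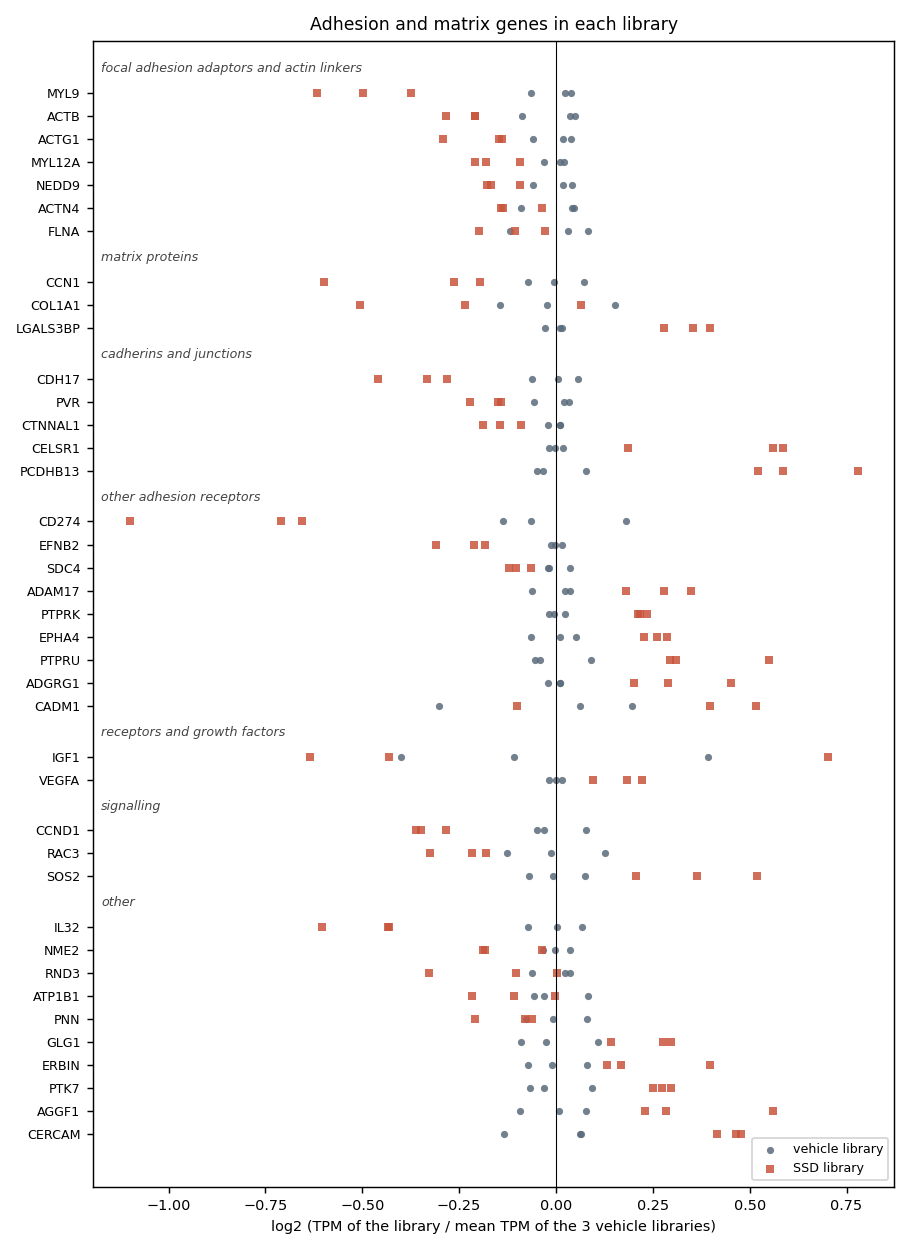
Log2 ratio of the TPM of each library to the mean of the 3 vehicle libraries (x axis) for 39 of the 41 genes (y axis), grouped by role, with circles for vehicle and squares for SSD libraries. The 7 actin-linked genes lie mostly left of 0 in SSD. Of the 9 genes in the role called other adhesion receptors, 6, the protease ADAM17 among them, lie mostly right of it. The IGF1 libraries of both groups are scattered.

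**Figure D2:**
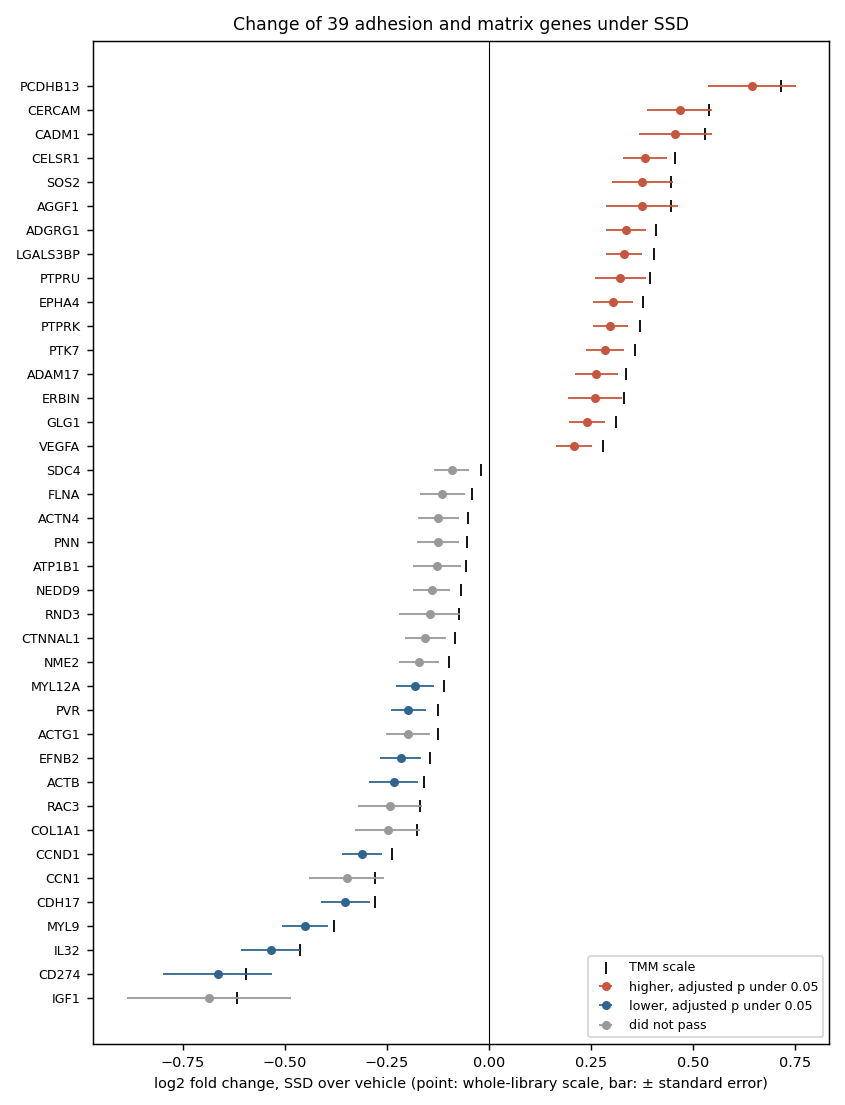
Log2 fold change of 39 of the 41 genes, SSD over vehicle (x axis), with points and bars for the estimate and its standard error on the whole-library scale, ticks for the TMM scale and colours for the call. The rises stand at 0.21 or above and the genes that did not pass lie at -0.09 or below.

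Among the members that passed, PCDHB13 and CERCAM had the largest rises and CD274 and IL32 the largest falls. PCDHB13, a clustered protocadherin whose single-exon gene (ENSG00000187372) lies on the plus strand at chr5:141213919-141218979 (GRCh38), was at 3.24, 2.97 and 3.0 TPM in vehicle 1 to 3 and at 4.61, 4.41 and 5.27 TPM in SSD 1 to 3. The lowest SSD library stood above the highest vehicle library, and the gene rose by 56.3% (log2 fold change 0.64 ± 0.11 SE, adjusted p = 0.00676, edgeR). Protocadherin beta genes are close copies of one another, so the counting may have shared reads between them. CERCAM, named as a cerebral endothelial cell adhesion molecule (ENSG00000167123, chr9:128411751-128437351, plus strand), was at 19.9, 19.8 and 17.3 TPM in vehicle and at 26.5, 25.4 and 26.2 TPM in SSD. It rose by 38.2% with no overlap of the groups (log2 fold change 0.47 ± 0.08 SE, adjusted p = 0.00697, edgeR).

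In the other direction, CD274, which encodes the immune checkpoint ligand PD-L1 (ENSG00000120217, chr9:5450503-5470566, plus strand), was at 7.95, 6.38 and 6.71 TPM in vehicle and at 3.27, 4.29 and 4.45 TPM in SSD. It fell by 36.9% without overlap (log2 fold change -0.67 ± 0.14 SE, adjusted p = 0.0141, edgeR), and the call was lost without vehicle 1, vehicle 2 or SSD 2, where the adjusted p of edgeR reached at most 0.0666. IL32, a cytokine gene annotated to cell adhesion (ENSG00000008517, chr16:3065297-3082192, plus strand), was far more abundant, at 136, 130 and 123 TPM in vehicle and at 85.3, 96.2 and 96.3 TPM in SSD. All 3 SSD libraries lay below all vehicle libraries, and IL32 fell by 31.0% (log2 fold change -0.53 ± 0.07 SE, adjusted p = 0.00302, edgeR) with the call kept whichever library was left out.

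Sequences before a RefSeq start of these 4 genes are shown because they were the 2 largest rises and the 2 largest falls, among members that passed, with an entry in the RefSeq promoter table (GRCh38.p14). Each run reads 5′ to 3′ on the strand of the gene, starts 250 bases before the RefSeq start and stops before the first base that GENCODE annotates as an exon of the gene, and capitals mark a TEAD motif.
PCDHB13: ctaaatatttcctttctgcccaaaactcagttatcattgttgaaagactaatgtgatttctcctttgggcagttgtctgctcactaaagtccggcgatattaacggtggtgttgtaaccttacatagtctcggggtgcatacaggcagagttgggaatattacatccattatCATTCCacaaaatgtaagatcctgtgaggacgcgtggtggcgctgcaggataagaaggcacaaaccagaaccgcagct
CERCAM: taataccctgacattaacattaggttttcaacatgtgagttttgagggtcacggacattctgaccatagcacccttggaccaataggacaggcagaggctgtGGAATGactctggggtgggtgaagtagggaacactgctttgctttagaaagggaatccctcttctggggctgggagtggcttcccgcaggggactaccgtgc
CD274: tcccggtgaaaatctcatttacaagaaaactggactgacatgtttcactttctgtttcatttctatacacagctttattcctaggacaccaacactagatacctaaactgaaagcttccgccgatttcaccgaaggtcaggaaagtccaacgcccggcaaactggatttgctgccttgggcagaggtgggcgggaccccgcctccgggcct
IL32: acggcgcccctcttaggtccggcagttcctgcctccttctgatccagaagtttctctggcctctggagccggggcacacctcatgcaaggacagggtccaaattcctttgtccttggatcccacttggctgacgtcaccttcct
The windows are chr5:141213669-141213918 for PCDHB13, chr9:128418910-128419113 for CERCAM, chr9:5450292-5450502 for CD274 and chr16:3065153-3065296 for IL32, all on the plus strand. RefSeq lists more than 1 start for CERCAM and for IL32, and the first listed was used. The CERCAM start lies inside the span that GENCODE gives the gene, so its window is not upstream of the whole gene.

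In these windows the letters CACGTG (an E-box, bound by Myc with Max), TGANTCA (AP-1) and GGAATG (TEAD, the partner of YAP and TAZ) were searched on both strands over all 250 bases before the start. For PCDHB13 the TEAD letters began 78 bases before the start and for CERCAM 148 bases before it. IL32 had them 13 bases before the start, in a stretch that other IL32 transcripts hold as an exon and that is not shown, and CD274 had none of the 3 motifs. Of the 29 members with an entry, TEAD letters stood in 6 (20.7%, beside 11.9% of 35116 promoters in the table), namely ADAM17, PCDHB13, PTPRK and CERCAM among the rises and IL32 and PVR among the falls. The E-box stood in 3 (10.3% beside 6.34%), which were AGGF1, ACTG1 and MYL12A, and the AP-1 letters in 1, ACTN4 (3.45% beside 6.57%). These matches describe letters in a window and are no evidence of binding.

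The genes in the role called focal adhesion adaptors and actin linkers (actin linkers for short) showed a run of negative values. By function this role also takes in the actins ACTB and ACTG1 and the myosin light chains MYL9 and MYL12A. None of the 7 rose and 3 fell, MYL9, ACTB and MYL12A, with a median log2 fold change of -0.18 for the group beside -0.14 for the table. All 7 were below 0 under each of the 4 scalings tried. Of all table genes 64.8% were below 0 on the whole-library scale and 60.0% to 64.2% on the 3 others. Those 3 scalings moved table genes up by a median of 0.05 to 0.09. FLNA, the least negative of the 7, lay at -0.11, so the other scalings were no separate check of the sign. On the TMM scale 1 fall, MYL9, was left. MYL9, a regulatory light chain of non-muscle and smooth muscle myosin (ENSG00000101335, chr20:36541484-36551447, plus strand), was at 185, 196 and 198 TPM in vehicle and at 137, 126 and 149 TPM in SSD. The groups did not overlap and MYL9 fell by 26.8% (log2 fold change -0.45 ± 0.06 SE, adjusted p = 0.00231, edgeR), a call kept whichever library was left out.

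The actins were the most abundant members, and ACTB with ACTG1 made up 49.0% of the TPM of the 41 genes. ACTB, the beta-actin of the cytoskeleton, was at 4690, 5160 and 5109 TPM in vehicle and at 4313, 4311 and 4093 TPM in SSD. It fell by 14.9% (log2 fold change -0.23 ± 0.06 SE, adjusted p = 0.0494, edgeR), and the call was lost without vehicle 2, vehicle 3, SSD 2 or SSD 3, with an adjusted p of up to 0.26. ACTG1, the gamma-actin, was at 1986 to 2125 TPM in vehicle and 1690 to 1881 TPM in SSD, a log2 fold change of -0.20 that did not pass (adjusted p = 0.0634, edgeR). GENCODE lists 10 pseudogene copies of ACTB and 20 of ACTG1, which could share reads with them.

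MYL12A, a second myosin regulatory light chain, was at 923, 917 and 892 TPM in vehicle and at 788, 803 and 854 TPM in SSD. It fell by 11.8% without overlap (log2 fold change -0.18 ± 0.05 SE, adjusted p = 0.0453, edgeR), and the call held only with SSD 3 left out or with all libraries, the highest adjusted p being 0.233. The scaffold proteins of these sites did not pass. NEDD9, a Cas-family scaffold, was at -0.14 (adjusted p = 0.153, edgeR), ACTN4, an alpha-actinin that crosslinks actin, at -0.12 (adjusted p = 0.386), and FLNA, the filamin that ties actin to receptors, at -0.11 (adjusted p = 0.708) on the log2 scale. ACTN4 and FLNA overlapped between the groups.

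Of the 4 matrix proteins 2 rose, none fell and 2 did not pass. LGALS3BP, a secreted glycoprotein that binds galectins and matrix proteins, was at 217, 222 and 223 TPM in vehicle and at 291, 282 and 268 TPM in SSD. It rose by 25.7% without overlap (log2 fold change 0.33 ± 0.04 SE, adjusted p = 0.00302, edgeR), with the call kept whichever library was left out. CCN1, a matricellular protein that binds integrins, was at 36.5, 38.2 and 40.3 TPM in vehicle and at 25.3, 31.9 and 33.5 TPM in SSD. Its groups did not overlap, yet it did not pass (log2 fold change -0.35 ± 0.09 SE, adjusted p = 0.0526, edgeR). COL1A1, the alpha-1 chain of type I collagen, did not pass either, at -0.25 (adjusted p = 0.146, edgeR).

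Among 5 genes of cadherins and junctions 2 rose, 2 fell and 1 did not pass. Beside PCDHB13, the rise was CELSR1, a large seven-pass cadherin of planar cell polarity, at 11.3, 11.2 and 11.1 TPM in vehicle and at 12.7, 16.5 and 16.8 TPM in SSD. By TPM SSD 1 lay nearer to vehicle than the other SSD libraries did, but the scaled counts of SSD 1 to 3 were 1276, 1276 and 1233. On these counts CELSR1 rose by 30.4% (log2 fold change 0.38 ± 0.05 SE, adjusted p = 0.00341, edgeR) with the call kept whichever library was left out. CDH17, the liver-intestine cadherin of intestinal epithelium, was at 44.2, 48.0 and 46.3 TPM in vehicle and at 38.0, 36.6 and 33.6 TPM in SSD, and fell by 21.7% without overlap (log2 fold change -0.35 ± 0.06 SE, adjusted p = 0.00703, edgeR). PVR, the nectin-like poliovirus receptor, was at 217, 231 and 230 TPM in vehicle and at 205, 204 and 194 TPM in SSD. It fell by 12.8% (log2 fold change -0.20 ± 0.04 SE, adjusted p = 0.0207, edgeR), and the call was lost without vehicle 2, vehicle 3 or SSD 2, with an adjusted p of up to 0.13. An exon of PVR shares bases with one of CEACAM19 on the same strand. CTNNAL1, an alpha-catenin relative, was at -0.16 on the log2 scale and did not pass (adjusted p = 0.148, edgeR).

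Of the 9 genes in the role called other adhesion receptors, 6 rose and 2 fell (CD274 and EFNB2), beside 33.8% and 19.5% of the table. The 1 left did not pass, and the median log2 fold change was 0.30. By function this role also takes in ligands (CD274 and EFNB2) and a protease (ADAM17), while the receptor kinase PTK7 is counted elsewhere. A pair of receptor-type tyrosine phosphatases that bind their own kind on neighbouring cells rose. PTPRK was at 70.1, 72.1 and 70.7 TPM in vehicle and at 83.5, 82.5 and 82.3 TPM in SSD, with tight groups far apart, and rose by 22.9% (log2 fold change 0.30 ± 0.04 SE, adjusted p = 0.0038, edgeR). PTPRU was at 18.5, 20.4 and 18.6 TPM in vehicle and at 23.7, 28.03 and 23.5 TPM in SSD, and rose by 25.0% (log2 fold change 0.32 ± 0.06 SE, adjusted p = 0.0115, edgeR). The call of PTPRU was lost without vehicle 3 or SSD 2 (adjusted p of up to 0.0773), and that of PTPRK was kept whichever library was left out.

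Among ephrin genes, the transcript of a receptor rose and that of a ligand fell, while signalling itself was not measured. EPHA4, an ephrin receptor kinase, was at 34.6, 32.0 and 33.6 TPM in vehicle and at 40.04, 40.8 and 39.1 TPM in SSD, and rose by 23.5% (log2 fold change 0.30 ± 0.05 SE, adjusted p = 0.00587, edgeR). EFNB2, the ligand ephrin-B2, was at 57.8, 57.0 and 56.6 TPM in vehicle and at 46.1, 49.3 and 50.3 TPM in SSD. It fell by 13.9% (log2 fold change -0.22 ± 0.05 SE, adjusted p = 0.0284, edgeR), and its groups did not overlap. Its call was lost whichever vehicle library was left out and without SSD 1 or SSD 2, with an adjusted p of up to 0.127, while that of EPHA4 was kept whichever library was left out.

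ADGRG1, an adhesion G protein-coupled receptor, was at 158, 162 and 162 TPM in vehicle and at 220, 196 and 185 TPM in SSD, and rose by 26.2% (log2 fold change 0.34 ± 0.05 SE, adjusted p = 0.00397, edgeR). By TPM the SSD libraries spread more widely than the vehicle libraries. By scaled counts they did not (SD 204 in vehicle and 167 in SSD). All SSD values were above all vehicle values on both measures, and the call was kept whichever library was left out. ADAM17, the sheddase that cuts many surface proteins, was at 38.7, 36.2 and 38.4 TPM in vehicle and at 42.8, 45.8 and 48.1 TPM in SSD, and rose by 20.0% (log2 fold change 0.26 ± 0.05 SE, adjusted p = 0.0142, edgeR). Its call was lost without vehicle 2, vehicle 3 or SSD 2 (adjusted p of up to 0.11). SDC4, the heparan sulphate proteoglycan syndecan-4, had the smallest change of all members, -0.09 on the log2 scale, and did not pass (adjusted p = 0.6, edgeR).

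The small GTPase and growth signalling genes were also mixed, with 2 rises, 1 fall and 1 that did not pass among 4. CCND1, the cell cycle protein cyclin D1, carried by the focal adhesion term as a target of the pathway (ENSG00000110092, chr11:69641087-69654474, plus strand), was at 413, 418 and 450 TPM in vehicle and at 351, 336 and 333 TPM in SSD. The groups lay well apart and CCND1 fell by 19.4% (log2 fold change -0.31 ± 0.05 SE, adjusted p = 0.0050, edgeR), a call kept whichever library was left out. SOS2, an exchange factor for Ras, was at 24.5, 23.1 and 22.1 TPM in vehicle and at 26.8, 29.9 and 33.3 TPM in SSD, and rose by 29.7% (log2 fold change 0.38 ± 0.07 SE, adjusted p = 0.0127, edgeR). The call of SOS2 was lost without vehicle 2, vehicle 3 or SSD 2, with an adjusted p of up to 0.0644. RAC3, a Rac GTPase, was at -0.24 and did not pass (adjusted p = 0.145, edgeR).

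Of the 2 secreted growth factors under the focal adhesion term, VEGFA, the main angiogenic factor, was at 217, 212 and 215 TPM in vehicle and at 250, 229 and 244 TPM in SSD, and rose by 15.5% (log2 fold change 0.21 ± 0.04 SE, adjusted p = 0.0196, edgeR). The call was lost without vehicle 2, vehicle 3 or SSD 2 (adjusted p of up to 0.147). IGF1, insulin-like growth factor 1, did not pass, and it was the 1 member whose counts and TPM gave log2 changes more than 0.2 apart, beside 2.73% of the table. It was at 2.93, 3.59 and 5.08 TPM in vehicle and at 2.49, 2.87 and 6.29 TPM in SSD, overlapping groups with a log2 ratio of means of 0.01. Its counts gave a log2 fold change of -0.69 ± 0.20 SE (adjusted p = 0.0935, edgeR). An exon of IGF1 shares bases with HELLPAR on the opposite strand, whether the counting used strand is not given in the sources used here, and the part of either in the gap was not tested.

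CADM1, an immunoglobulin-type adhesion molecule, also differed in strength between the measures. Its TPM was 9.71, 7.54 and 10.7 in vehicle and 8.67, 12.2 and 13.3 in SSD, so that SSD 1 lay within the vehicle range, and the log2 ratio of the mean TPM was 0.29. Its scaled counts did not overlap and gave a rise of 37.2% (log2 fold change 0.46 ± 0.09 SE, adjusted p = 0.0119, edgeR), with the call lost without vehicle 2 or SSD 2 (adjusted p of up to 0.0874). For 38 of the 41 genes the 2 measures were within 0.1 of each other on the log2 scale.

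**Figure D3:**
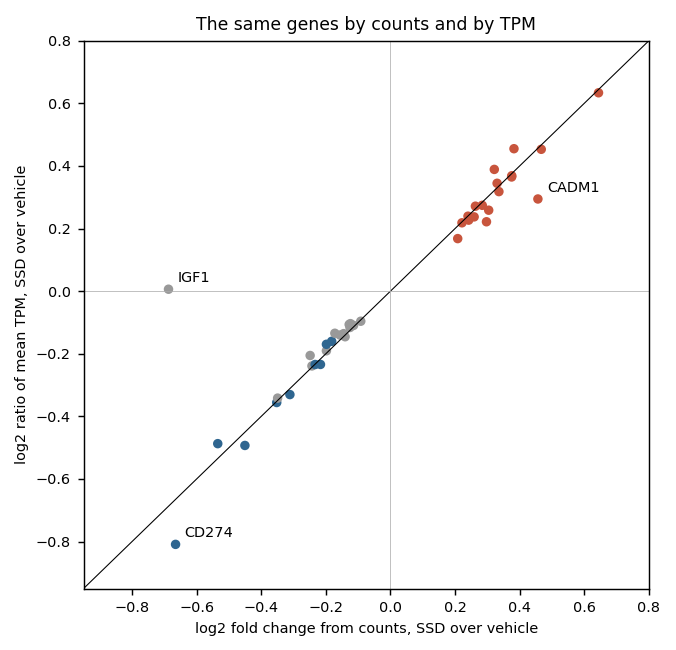
Log2 ratio of mean TPM (y axis) against the log2 fold change from counts (x axis), SSD over vehicle, for the 41 genes, coloured by call (red higher, blue lower, grey did not pass), with the line of equality. IGF1 stands apart at -0.69 by counts and 0.01 by TPM, and CADM1 and CD274 are the next farthest from the line.

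The 10 remaining members, of various functions, held 5 rises and 1 fall, with CERCAM and IL32 at the 2 ends. PTK7, a catalytically inactive receptor kinase of Wnt and polarity signalling, was at 75.0, 73.2 and 81.9 TPM in vehicle and at 94.3, 92.8 and 91.2 TPM in SSD. It rose by 21.8% (log2 fold change 0.28 ± 0.05 SE, adjusted p = 0.00564, edgeR) with the call kept whichever library was left out. GLG1, a Golgi glycoprotein that binds E-selectin, was at 81.2, 89.2 and 77.6 TPM in vehicle and at 91.2, 102 and 100 TPM in SSD, and rose by 18.1% (log2 fold change 0.24 ± 0.04 SE, adjusted p = 0.00898, edgeR). AGGF1, an angiogenic factor with 10 pseudogene copies in GENCODE, was at 15.6 to 17.5 TPM in vehicle and 19.4 to 24.4 TPM in SSD, and rose by 29.7% (log2 fold change 0.38 ± 0.09 SE, adjusted p = 0.0301, edgeR). ERBIN, a scaffold of hemidesmosomes and basolateral membranes that binds the receptor ERBB2, was at 43.2 to 48.0 TPM in vehicle and 49.7 to 59.9 TPM in SSD, and rose by 19.7% (log2 fold change 0.26 ± 0.07 SE, adjusted p = 0.0488, edgeR). GLG1 lost its call without vehicle 3 or SSD 2 (adjusted p of up to 0.063), AGGF1 without vehicle 1, vehicle 2, vehicle 3 or SSD 2 (up to 0.146), and ERBIN without vehicle 2, vehicle 3, SSD 2 or SSD 3 (up to 0.25).

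The genes of this last group that did not pass were NME2, a nucleoside diphosphate kinase, at -0.17 (adjusted p = 0.0847, edgeR), RND3 at -0.14 (0.857), ATP1B1, the beta subunit of the sodium pump, at -0.13 (0.617), and PNN, pinin of desmosomes and the nucleus, at -0.13 (0.424). NME2 shares exons with the readthrough gene NME1-NME2, so its reads are uncertain. Among the called genes, exons on the same strand overlapped those of AGGF1 (AC008581.2) and IL32 (RNU1-125P), as well as PVR. Exons on the opposite strand also overlapped those of EPHA4, PTPRK, ADAM17, VEGFA, CCND1, MYL12A and EFNB2 among the called genes, and without strand their reads cannot be told apart.

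**Figure D4:**
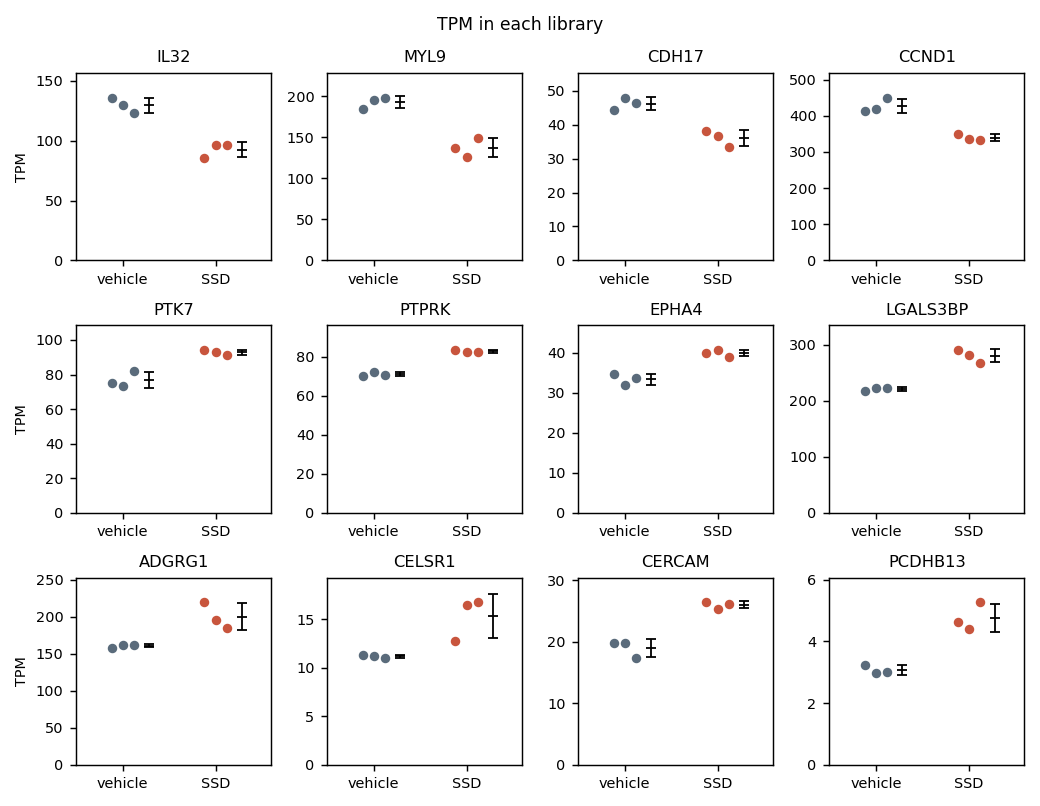
TPM of each library (y axis, from 0) for the 12 genes whose call was kept when any 1 library was left out, with 3 points each for vehicle (grey) and SSD (red) and black bars for the mean ± SD. The groups do not overlap in any panel, from IL32, at 130 ± 6.28 TPM in vehicle and 92.6 ± 6.29 TPM in SSD (SD, n = 3), to PCDHB13.

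Summed over its genes, the set took a slightly smaller share of each library under SSD. It was 1.29%, 1.28% and 1.24% of all TPM in SSD 1 to 3 and 1.36%, 1.43% and 1.43% in vehicle 1 to 3. The whole table took 31.1%, 30.1% and 30.4% against 33.1%, 32.8% and 32.3%. The actins made up about as much of the set as all other members together. Mean ACTB went from 4987 TPM in vehicle to 4239 TPM in SSD, and mean ACTG1 from 2070 to 1814 TPM. The sum thus weighs these abundant genes most and says little about the 18 rises. The genes that rose were longer and less abundant by the median than those that fell, in the members as in the table. The median listed gene length was 4480 bases for the 18 rises and 2786 for the 9 falls, and the median TPM in vehicle was 41.6 and 193. Over the table the same medians were 4018 and 2062 bases for rises and falls, and 24.2 and 109 TPM.

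By annotation, the KEGG focal adhesion term held 3 rises and 4 falls among 13 members, with a median log2 fold change of -0.20. The cell adhesion molecule term held 2 rises (CADM1 and GLG1) and 2 falls (CD274 and PVR) among 5. The 23 members under the Gene Ontology term held 13 rises and 3 falls, with a median of 0.26. For a single value, an exact two-sided permutation test of 3 against 3 libraries cannot go below p = 0.1, so none could pass 0.05 alone. The calls rest on the spread that edgeR pooled over genes. Only the listed genes entered it, and the authors had selected these by p in the same libraries. The pooled spread, and with it the adjusted p-values, may therefore be too small, which was not tested.

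Other genes of the same biology came from lists written from general knowledge. Of 33 SRF and MRTF targets, 15 were in the table, 6 of them members. Of these members, FLNA, MYL12A, ACTG1, ACTB and MYL9 also belong to the actin linker role above, which this list partly recounts. None rose, beside 33.8% of all table genes, and 6 fell, beside 19.5%. The falls were MYL12A, ACTB, MYL9, PDLIM7, FHL2 and TAGLN. All 15 were below 0 under each of the 4 scalings, beside 60.0% to 64.8% of all table genes, with a median log2 fold change of -0.20 (-0.12 on the TMM scale, where 2 passed). The least negative, TPM4, was at -0.10 on the whole-library scale. The median shifts to the other scalings were smaller, so these were no separate check of the sign. TAGLN, the actin-binding transgelin, fell by 0.57 on the log2 scale (adjusted p = 0.00113, edgeR), more than any member of that list among the 41 genes, and FHL2, a LIM protein, by 0.36 (adjusted p = 0.00895). The count of 6 falls was 3 without vehicle 2, vehicle 3 or SSD 2. CCN1 is in this list and also among 32 YAP and TAZ targets, of which 5 were in the table. Of the 5 none rose and 2 fell, beside 33.8% and 19.5% of all table genes. The 2 falls were ANKRD1, an ankyrin repeat protein, by 0.66 (adjusted p = 0.00151) and F3, tissue factor, by 0.44 (adjusted p = 0.00934, edgeR).

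Of 39 matrix proteases and their inhibitors, 7 were in the table, and 5 rose and 1 fell, beside 33.8% and 19.5% of all table genes. The rises were ADAM17, the 1 member, with MMP14, the membrane-bound collagenase, at 0.24 (adjusted p = 0.00691, edgeR), the lysosomal CTSB at 0.26, the surface protease ST14 at 0.31 and its inhibitor SPINT1 at 0.31. Without SSD 2, the calls of CTSB, SPINT1, ST14 and ADAM17 were lost, and the highest adjusted p over the libraries left out were 0.0551, 0.0551, 0.0708 and 0.11 (edgeR). ST14 was also lost without vehicle 1 or vehicle 3, and ADAM17 without vehicle 2 or vehicle 3. MMP1, the interstitial collagenase, fell by 0.42 (adjusted p = 0.00246, edgeR). Of 28 genes of epithelial-mesenchymal change, 1 was in the table, VIM, the intermediate filament vimentin, which rose by 0.75 (adjusted p = 0.00688, edgeR).

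**Figure D5:**
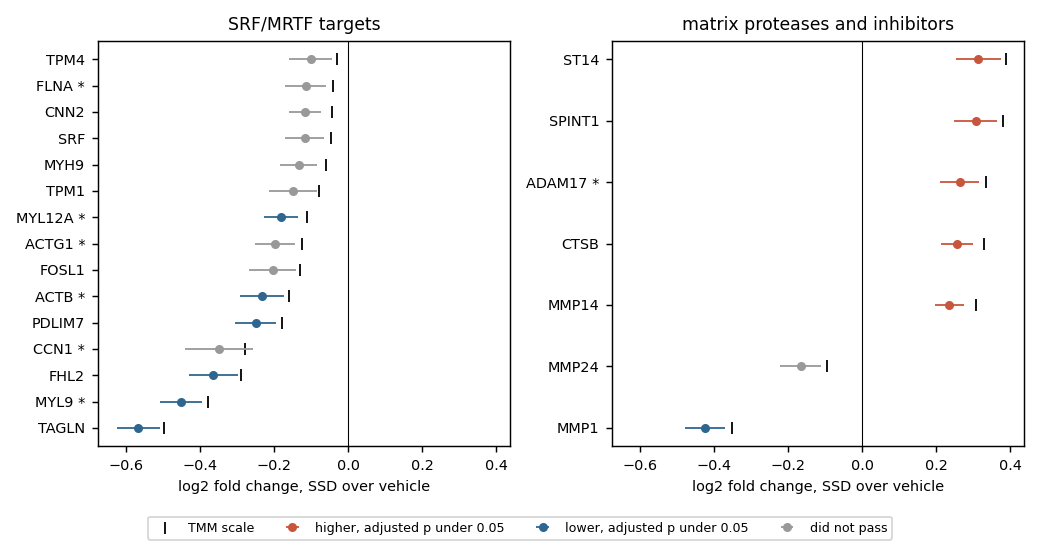
Log2 fold change, SSD over vehicle (x axis), of the table genes in the lists of SRF and MRTF targets (left, 15 genes) and of matrix proteases and inhibitors (right, 7 genes), with standard error bars, TMM ticks and asterisks at the members. All SRF and MRTF targets lie left of 0 on both scales, from -0.10 to -0.57 on the whole-library scale and from -0.0304 to -0.50 on the TMM scale, and 5 of the 7 protease genes lie right of it.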

How the data were processed

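RNA from AGS cells was sequenced after polyA selection in 3 vehicle and 3 SSD libraries. The authors deposited 1 table with estimated counts (33.5% of the values were not whole) and TPM values, which the authors had scaled to whole libraries. It also holds the authors' log2 fold changes, fold ratios, p-values and adjusted p-values, which were not used except to read that 11289 genes had been tested. Per the labels the build was GRCh38.p13, and the aligner and counter are not given in the sources used here. All columns were mapped to samples, the vehicle columns by a short form of control and the replicate number in their names. The treated columns do not name SSD. Their names were read as a part of the compound code and the dose that the labels give, with the replicate number. Their match to the SSD samples was therefore inferred, and it does not settle the dose.

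Counts were rounded and tested with the quasi-likelihood test of edgeR 4.0.16 (R 4.3.3), with library sizes from the median ratio of count to TPM and no covariate, on all 1099 genes. Benjamini-Hochberg adjustment ran over 11289 genes, taking those outside the table as having larger p. A call needs an adjusted p under 0.05. No gene had a mean under 59 counts. The script was tested on simulated data. limma 3.58.1 and DESeq2 1.42.0 served as alternatives.

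The rule took members that passed, averaged 100 counts or more and had groups apart. It named up to 15 with the largest rise and up to 15 with the largest fall (15 rises and 9 falls). Integrins, laminins and list genes that passed were also in the rule. VEGFA, GLG1 and the genes that did not pass were added after their values were seen. The 41 genes include 2 that are counted but not reported here by name. Members and lists were chosen with earlier results of these data known. Positions and overlaps are from GENCODE 29 (41 of 41 IDs matched), promoters from RefSeq (29 of 41 symbols). Differences between replicate libraries were 4.73 to 16.3 times the Poisson variance, so none was a copy of another.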

Additional observations from a re-analysis of the deposited data

How the results depend on the processing

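The 24 members named by rule gave 384 values under 16 other settings. Of these 288 kept direction and call, 96 kept direction and lost the call, and none reversed. With 1 library left out none could reverse, because the groups of these 24 genes did not overlap in scaled counts. The range without 1 library was 8 to 18 rises and 4 to 11 falls among the members, 169 to 382 rises and 78 to 284 falls in the table, and -0.126 to -0.0883 for the member median of -0.12. Called by role it was 1 to 3 actin linkers, 1 to 3 matrix proteins, 3 to 4 cadherins and junctions, 3 to 7 other genes, 3 to 8 adhesion receptors, 0 to 2 growth factors and 1 to 4 signalling genes, and among the members of each list 1 to 3 SRF and MRTF targets, 0 to 1 YAP and TAZ targets and 0 to 1 protease genes. Vehicle 2, vehicle 3 and SSD 2 were the libraries that moved the counts of members by over 1.5 times.

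Falls among the members were 5 under TMM, DESeq2 size factors and library size alone, table-wide falls 87, 86 and 126, and the member median -0.0506, -0.0308 and -0.0693, with 1 actin linker and 1 member of the SRF and MRTF list called. The Wald test of DESeq2 called 5 SRF and MRTF targets and 1 YAP and TAZ target among the members. limma on log2(TPM + 1) called 3 rises and 4 falls, and 122 and 60 in the table (117 and 52 with a pseudocount of 0.1), with a member median of -0.10. Among the members it left 2 of the other genes, no growth factor, no protease gene and 1 each of the remaining roles and of the SRF and MRTF list. Adjustment over the table alone gave the members 19 falls (580 in the table), 6 actin linkers, 4 matrix proteins, 2 growth factors, 5 SRF and MRTF targets and 1 YAP and TAZ target, in a smaller family of tests. KEGG terms alone gave 5 rises, the Gene Ontology term alone 3 falls, and a change of at least 1.5-fold 1 of each. The least counted member averaged 92.7 counts a library, so depth limits the low genes most. The cause of the shifts between scales and tests was not tested.

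Replicate numbers are shared between the groups, and the deviations of same-numbered libraries correlated at -0.23, -0.01 and -0.03. Libraries with unlike numbers gave -0.20 to 0.23, so these values showed no sign of pairing but cannot decide whether the numbers pair the samples. With the replicate block the members had 12 rises and 4 falls with 194 and 94 in all genes, and among the members 4 adhesion receptors, 1 actin linker, 1 signalling gene, 1 SRF and MRTF target, 0 growth factors and 0 protease genes were called.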
